A study of Mus musculus with 10 samples.

Results

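Gldc and 9 genes that work with it in the glycine and folate metabolism of the liver were followed in mice that lack Nr1d1, the gene of the circadian repressor Rev-erb alpha. The 10 genes are Gldc, Amt, Gcsh, Dld, Shmt1, Shmt2, Gnmt, Dmgdh, Mthfd1 and Mthfd2. They were chosen by gene symbol, with results of the comparison described here already known, so their own differences are given as a description and without p-values. All 10 had 1 probe set each, among 19933 genes with a probe set of their own. Livers came from 5 WT and 5 Nr1d1-/- (KO) male C57Bl/6 mice of 10 to 12 weeks on normal chow, under a cycle of 12 h light, 12 h dark, and were killed at ZT10, where ZT0 is lights on. KO mice derived from a line crossed back to C57Bl/6 for at least 7 generations, and WT mice were bought from the Jackson Laboratories, so genotype and origin cannot be told apart. The KO is not restricted to a cell type by anything in the labels, and each array (Affymetrix Mouse Gene 1.0 ST) held RNA of 1 mouse.

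The glycine cleavage system is a mitochondrial enzyme complex that breaks glycine down to carbon dioxide, ammonia and a one-carbon unit carried by tetrahydrofolate, and liver is one of its main sites. Gldc encodes the glycine decarboxylase (P protein), Amt the aminomethyltransferase (T protein), Gcsh the lipoate-bearing carrier (H protein) and Dld the dihydrolipoamide dehydrogenase (L protein), which the pyruvate, 2-oxoglutarate and branched-chain 2-oxoacid dehydrogenase complexes also use. Around it, serine hydroxymethyltransferases interconvert serine and glycine, Gnmt and Dmgdh handle methyl groups on glycine, and the Mthfd enzymes change the oxidation state of one-carbon folates.

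The KO livers held more Gldc and Amt RNA signal than the WT livers, while the other subunits of the complex, Gcsh and Dld, lay within overlapping ranges. Shmt1 and Dmgdh were also higher in every KO liver, by smaller amounts. In the limma fit over all genes these 4 of the 10 members passed the threshold (Benjamini-Hochberg adjusted p under 0.05), all of them upward, beside 5.61% of all genes in either direction, 3.17% upward and 2.44% downward. In the same 4 members the groups did not overlap, all with KO above WT, beside 7.00% of all genes in either direction, 3.99% with KO above WT and 3.02% with KO below WT. Nothing is read from these counts, since the members were named with this contrast in view. The median difference of the 10 members was 0.10 on the log2 scale, against 0.01 over all genes. In whole liver, a change in RNA per cell and a change in the number of cells that express a gene cannot be told apart.

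Gldc read 10.59, 10.60, 10.45, 10.44 and 10.58 in the WT livers (log2 intensity, replicates 1 to 5). In the KO livers it read 11.92, 11.73, 11.90, 11.89 and 11.87. The genotypes did not overlap, and the gap between the groups, 1.13, was wider than the range within either, 0.16 in WT and 0.19 in KO. Group means were 10.53 ± 0.078 and 11.86 ± 0.074 (SD, n = 5 each), a difference of 1.33 with a standard error (SE) of 0.053, or 2.51-fold, which is the 29th largest upward difference among all genes tested. Its protein-coding neighbours in RefSeq order among the genes tested did not share this: Trpd52l3 differed by 0.02 and Uhrf2 by -0.08 on one side, Mbl2 by -0.20 and Dkk1 by -0.01 on the other, and none of these 4 passed the threshold (limma adjusted p from 0.200 to 0.977).

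Amt encodes the subunit that passes the one-carbon unit on to tetrahydrofolate. Amt read 9.49, 9.18, 9.32, 9.53 and 9.45 in WT and 9.89, 10.03, 10.09, 10.01 and 10.03 in KO. The groups were apart, with 0.36 between the highest WT liver and the lowest KO liver. Means of 9.39 ± 0.14 and 10.01 ± 0.076 (SD, n = 5 each) give a difference of 0.62 with SE 0.069, or 1.53-fold. WT replicate 2 was the lowest of all livers in Amt while it was the highest WT liver in Gldc. With each genotype's mean subtracted, the pair had a Pearson r of -0.27 over the 10 arrays, given as a description.

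Gcsh, the carrier that shuttles the intermediate between the other subunits, read from 8.43 to 8.50 in WT and from 8.19 to 8.58 in KO. Of the KO livers, replicates 2, 3 and 4 lay above all WT livers and replicates 1 and 5 below them, with replicate 5 lowest. The means were 8.48 ± 0.028 and 8.46 ± 0.16 (SD, n = 5 each). The difference of -0.016 (SE 0.069) had a 95% interval of -0.17 to 0.14, and it became 0.051 without KO replicate 5 and 0.037 without the 3 arrays of widest interquartile range. Its direction is therefore not settled, while the interval lies wholly below the differences of Gldc and Amt.

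Dld, the subunit shared with other complexes, read from 10.23 to 10.43 in WT and from 10.43 to 10.50 in KO, and WT replicate 3 was the low one. The difference was 0.09 (SE 0.049, 95% interval -0.02 to 0.19), so its interval includes 0. Within the complex, the differences thus ran in the order Gldc, Amt, Dld, Gcsh, and the 95% intervals of the last pair overlapped.

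**Figure D1:**
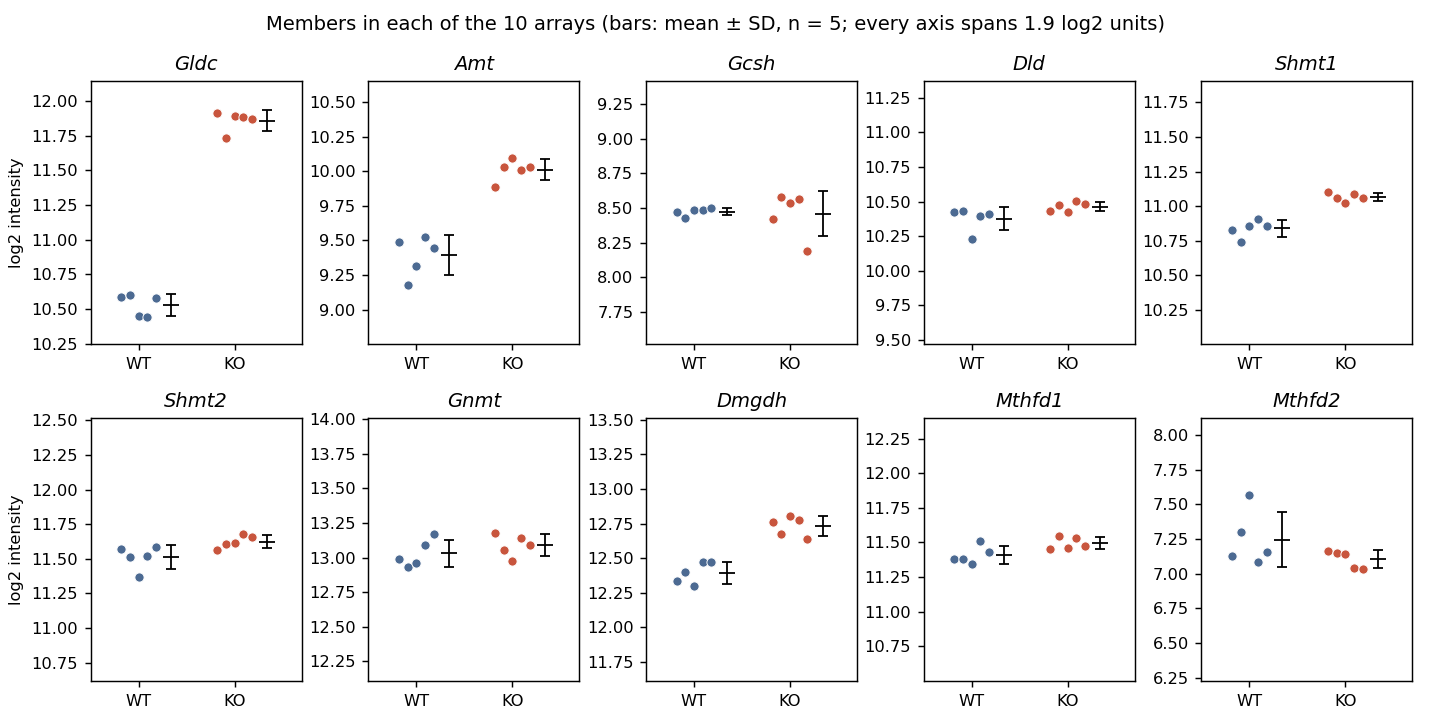
Log2 intensity of each of the 10 members in every array, with WT livers in blue and KO livers in red, and the mean ± SD of 5 livers beside each group; every vertical axis spans the same number of log2 units. Gldc, Amt, Shmt1 and Dmgdh have no overlap between the genotypes, with Gldc at 10.53 in WT and 11.86 in KO, while the other 6 members overlap.

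The cytosolic serine hydroxymethyltransferase Shmt1 read 10.83, 10.74, 10.86, 10.91 and 10.86 in WT and 11.10, 11.06, 11.02, 11.09 and 11.06 in KO. The groups were apart by 0.12. The difference was 0.23 (SE 0.044), or 1.17-fold, from 10.84 ± 0.061 to 11.07 ± 0.030 (SD, n = 5 each). Its mitochondrial counterpart Shmt2 read from 11.37 to 11.59 in WT and from 11.56 to 11.68 in KO. For Shmt2 the ranges overlapped, with a difference of 0.11 (SE 0.050, 95% interval 0.00 to 0.22). Shmt1 is the only member on chromosome 11, which also carries the targeted gene; the promoters of Shmt1 and Nr1d1 lie 38.0 Mb apart in GRCm38.p6, and whether sequence from the donor strain of the knockout remains there was not tested. Without the 3 arrays of widest interquartile range, Shmt1 kept its size (0.22) and lost the all-gene threshold with fewer arrays in the fit.

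Dmgdh, the mitochondrial dehydrogenase that turns dimethylglycine into sarcosine and hands the carbon to folate, read 12.34, 12.40, 12.30, 12.47 and 12.47 in WT and 12.76, 12.67, 12.81, 12.78 and 12.64 in KO. All KO livers were above all WT livers. The difference was 0.34 (SE 0.053), or 1.26-fold, from 12.40 ± 0.080 to 12.73 ± 0.071 (SD, n = 5 each). Gnmt, which uses S-adenosylmethionine to methylate glycine and is abundant in liver, read from 12.93 to 13.17 in WT and from 12.98 to 13.18 in KO, nearly the same span. Its difference was 0.06 (SE 0.058, 95% interval -0.07 to 0.18).

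The folate enzymes among the members showed no separation. Mthfd1, the cytosolic enzyme that joins several steps between formyl- and methylene-tetrahydrofolate, read from 11.34 to 11.51 in WT and from 11.45 to 11.55 in KO, with a difference of 0.09 (SE 0.046, 95% interval -0.01 to 0.19). Mthfd2 is the mitochondrial methylenetetrahydrofolate dehydrogenase, best known from embryonic and dividing cells. It read 7.13, 7.30, 7.57, 7.08 and 7.15 in WT and 7.17, 7.15, 7.14, 7.04 and 7.03 in KO, so WT replicate 3 stood above the rest. Its difference was -0.14 (SE 0.083, 95% interval -0.32 to 0.04), and without WT replicate 3 it was -0.06. Signal over background is unknown here; all members lay above the lower quartile of their arrays, which was between 6.00 and 6.11.

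Arrays of the same genotype differed in some members together. After subtracting each genotype's mean, Dld and Shmt2 deviated alike over the 10 arrays (Pearson r = 0.88) and Mthfd2 opposite to both (r = -0.83 with Dld and -0.89 with Shmt2). WT replicate 3 carried the largest deviations of all 3 genes, -0.15 for Dld, -0.14 for Shmt2 and 0.32 for Mthfd2. Over the 45 pairs of members r ran from -0.89 to 0.88 with a median of 0.20, and 28 pairs were positive. The spread of the arrays differed too: WT replicate 3 had the narrowest interquartile range in WT, 2.81 against 2.89 to 2.98. KO replicates 1, 2 and 3 were similarly narrow, at 2.81, 2.82 and 2.80. In KO replicates 1 and 3, as in WT replicate 3, Dld and Shmt2 lay below their genotype's mean and Mthfd2 above. In KO replicate 2 only Shmt2 of these genes lay below. In the 3 arrays of widest range, WT replicate 1 and KO replicates 4 and 5, Dld and Shmt2 lay above their genotype's mean and Mthfd2 below. WT replicates 4 and 5 had the same pattern. The part of array spread in these correlations was not tested. These values come from 1 set of arrays that share their normalization and are a description of 10 points each.

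**Figure D2:**
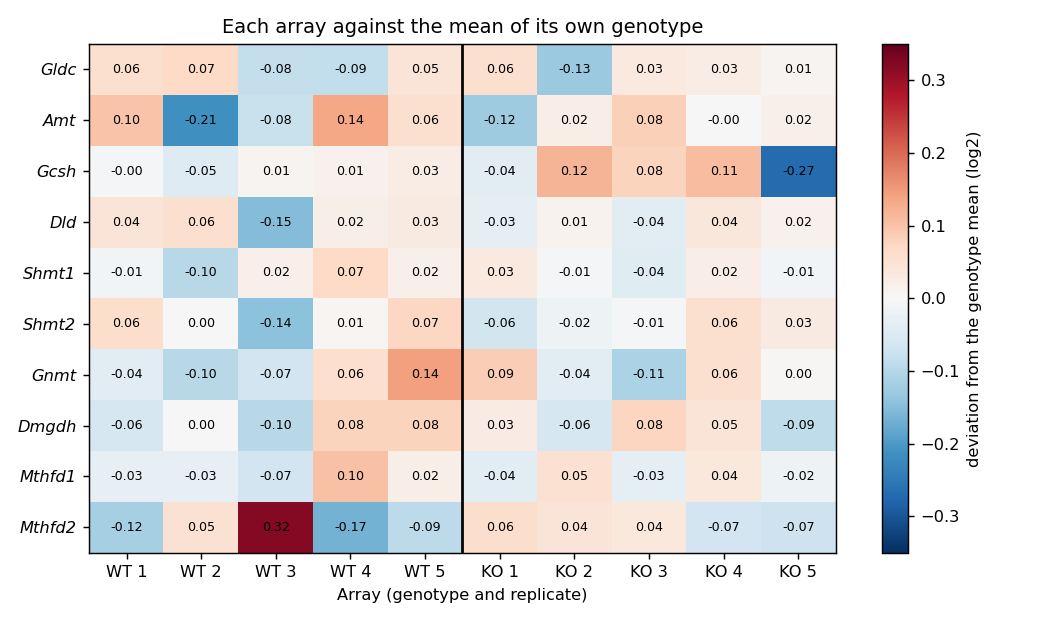
Deviation of each member (rows) in each array (columns) from the mean of its own genotype, in log2 units, red above and blue below that mean; the vertical line divides WT from KO. The strongest cells are Mthfd2 in WT replicate 3 at 0.32 and Gcsh in KO replicate 5 at -0.27, and Gldc deviates by at most 0.13 in size in any array.

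Likeness to Gldc within genotypes was also searched over 12078 genes with a mean log2 intensity of at least 7. The closest were Tmem208 (r = 0.95), Tmem216 (0.95), Ganab (0.94), Mcm3ap (0.93) and Fastkd1 (0.92). The most opposite were Psme1 (-0.91), Pou3f3 (-0.90) and Hyi (-0.86). None of the 5 closest passed the threshold between genotypes (limma adjusted p from 0.278 to 0.986), with differences from -0.06 to 0.12. Leaving out 1 array kept between 2 and 5 of these 5 names, so the ranking rests on single arrays.

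The DNA just before each start site is shown for the 4 members whose groups were apart, and for Mthfd1, because Rev-erb alpha binds DNA directly and these windows bear on whether its element lies close to their starts. Each line gives the 250 bases before the RefSeq start (GRCm38.p6), 5′ to 3′ on the strand of the gene: Gldc at chr19:30175442-30175691, minus strand; Amt at chr9:108296655-108296904, plus strand; Shmt1 at chr11:60811266-60811515, minus strand; Dmgdh at chr13:93674186-93674435, plus strand; and Mthfd1 at chr12:76254982-76255231, plus strand. Capitals mark every match, on either strand, to the Rev-erb and ROR element cores TAGGTCA and TGGGTCA, the E-box CACGTG, the ATF4 site core TGATGNA or the half-site AGGTCA, which the first core contains.
Gldc: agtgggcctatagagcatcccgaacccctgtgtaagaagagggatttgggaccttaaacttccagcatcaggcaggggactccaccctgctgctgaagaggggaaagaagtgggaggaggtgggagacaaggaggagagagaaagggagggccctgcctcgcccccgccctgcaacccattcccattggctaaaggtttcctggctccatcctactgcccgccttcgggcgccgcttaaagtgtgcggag
Amt: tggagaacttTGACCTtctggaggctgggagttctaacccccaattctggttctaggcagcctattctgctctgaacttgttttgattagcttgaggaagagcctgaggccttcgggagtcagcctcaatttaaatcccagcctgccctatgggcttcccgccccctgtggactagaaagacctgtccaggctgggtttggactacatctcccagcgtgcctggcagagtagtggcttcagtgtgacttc
Shmt1: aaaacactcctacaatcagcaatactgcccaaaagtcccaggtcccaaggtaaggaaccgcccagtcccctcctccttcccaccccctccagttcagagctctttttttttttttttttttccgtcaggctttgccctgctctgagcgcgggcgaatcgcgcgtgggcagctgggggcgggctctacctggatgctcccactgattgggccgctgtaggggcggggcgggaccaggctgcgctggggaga
Dmgdh: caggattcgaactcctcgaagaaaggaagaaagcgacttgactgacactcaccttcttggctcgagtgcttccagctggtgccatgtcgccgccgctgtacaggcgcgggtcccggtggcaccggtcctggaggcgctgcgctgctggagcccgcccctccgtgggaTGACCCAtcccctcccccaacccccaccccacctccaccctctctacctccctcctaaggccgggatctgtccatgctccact
Mthfd1: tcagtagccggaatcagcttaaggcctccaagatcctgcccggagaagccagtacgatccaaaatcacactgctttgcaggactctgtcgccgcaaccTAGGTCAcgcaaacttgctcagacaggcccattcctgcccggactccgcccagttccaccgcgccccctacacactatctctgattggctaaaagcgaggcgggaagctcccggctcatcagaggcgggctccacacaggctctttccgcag

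The window of Gldc, the member with the largest difference, held no match to any of these letters, and neither did that of Shmt1. Dmgdh had TGGGTCA on the opposite strand, starting 83 bases before the start site, a match that 3.24% of 32851 promoters hold in a window of this length. Mthfd1, whose groups overlapped, had TAGGTCA on its own strand 152 bases before the start, found in 2.23% of promoters. Amt held only the half-site, 240 bases before the start, as 14.0% of promoters do, and Gnmt, not shown, held it 181 bases before. TGATGNA, present in 10.4% of promoters, matched in Mthfd2 alone (185 bases before), and CACGTG, present in 6.02%, in no member. A match is a string of letters in a short window; it does not show binding, and its absence says nothing of sites elsewhere.

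The wider one-carbon network was read from 8 lists set by function, with 73 tested genes outside the members. These lists, too, were chosen with earlier results of these data known, so nothing is read from their counts. In limma 9 of the 73 genes rose, 2 fell and 62 did not pass (adjusted p under 0.05 over all genes). That is 15.1% called, beside 5.61% of all genes, and the median difference was 0.03 beside 0.01. The shares of all genes called upward and downward, 3.17% and 2.44%, also stand beside each list below. Without the 3 arrays of widest interquartile range, WT replicate 1 and KO replicates 4 and 5, only 4 of the 11 kept the call, Fpgs, Agxt, Gss and Bhmt2, while all genes called went from 1119 to 527 with fewer arrays in the fit. Of the 7 that lost it, Mthfd1l had a smaller difference there (-0.18 against -0.26) and Slc19a1 a slightly smaller one (0.20 against 0.22).

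Among folate genes, Fpgs changed most. It encodes folylpolyglutamate synthase, which adds the glutamate tail that holds folates inside the cell and its mitochondria. Fpgs read 10.30, 10.14, 10.02, 10.54 and 10.48 in WT and 11.01, 10.94, 11.21, 11.03 and 11.06 in KO. The WT livers were spread more widely, yet all were lower than the KO livers, and Fpgs rose by 0.75 (SE 0.094, limma adjusted p = 0.000508), or 1.69-fold. Of 10 tested folate cycle genes, Mthfd1l, which makes formate from formyltetrahydrofolate in mitochondria, fell by 0.26 (adjusted p = 0.0486), and the remaining 8 did not pass. Of 5 folate transport genes only Slc19a1, the reduced folate carrier, rose, by 0.22 (adjusted p = 0.0495), with overlapping groups. Both calls sat at the threshold: each was lost without any 1 of 8 arrays, Mthfd1l with adjusted p up to 0.119 and Slc19a1 up to 0.113.

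Of 12 tested genes of serine synthesis and of serine, threonine and glyoxylate breakdown, Agxt and Agxt2 rose and 10 did not pass. Agxt encodes the aminotransferase that makes glycine from glyoxylate. It read from 10.92 to 11.15 in WT and from 11.53 to 11.72 in KO, a gap of 0.38 between the groups, and rose by 0.56 (SE 0.057, limma adjusted p = 0.000115), or 1.47-fold. Agxt2, a mitochondrial aminotransferase that also acts on glyoxylate, rose by 0.37 (SE 0.066, limma adjusted p = 0.00569). The serine synthesis enzymes Phgdh, Psat1 and Psph, named here after their values were seen, differed by -0.08, 0.01 and -0.10 and did not pass. Asns, an amino acid response gene, differed by -2.84 in the same livers.

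Of 8 genes that use or move glycine, Gss fell and 7 did not pass. Gss encodes glutathione synthetase, which joins glycine to glutamylcysteine. It read from 9.90 to 10.07 in WT and from 9.59 to 9.74 in KO, without overlap, and fell by 0.30 (SE 0.051, limma adjusted p = 0.00397). Slc6a9, a glycine transporter chosen here after its values were seen, had a difference of about the same size, -0.32 (SE 0.12), but wide spread in KO (SD 0.30) and did not pass (limma adjusted p = 0.150).

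Methionine cycle and methyl donor genes gave 5 rises among 16 tested, with 11 not passing and none falling, beside 3.17% of all genes called upward. Bhmt, which methylates homocysteine with betaine and thereby releases dimethylglycine, rose by 0.30 (SE 0.053, limma adjusted p = 0.00520), and its relative Bhmt2 by 0.26 (SE 0.041, adjusted p = 0.00287). Sardh, which acts after Dmgdh and turns sarcosine into glycine, rose by 0.19 (SE 0.042, adjusted p = 0.0203). Cbs and Cth, the enzymes that carry homocysteine to cysteine, rose by 0.30 (adjusted p = 0.0149) and 0.25 (adjusted p = 0.0185). In each of these 5 genes the groups were apart, by as little as 0.01 for Cth and as much as 0.16 for Bhmt2. Over all genes, 3.99% had KO above WT without overlap. Sardh lost the call without WT replicate 3 or without KO replicate 4 (adjusted p up to 0.0520). Agxt2, Bhmt, Cbs, Cth and Sardh lost it without the 3 arrays of widest interquartile range (limma adjusted p from 0.0532 to 0.0928), while their differences there, 0.37, 0.31, 0.31, 0.28 and 0.19 in that order, were about as large as with all arrays or larger.

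**Figure D3:**
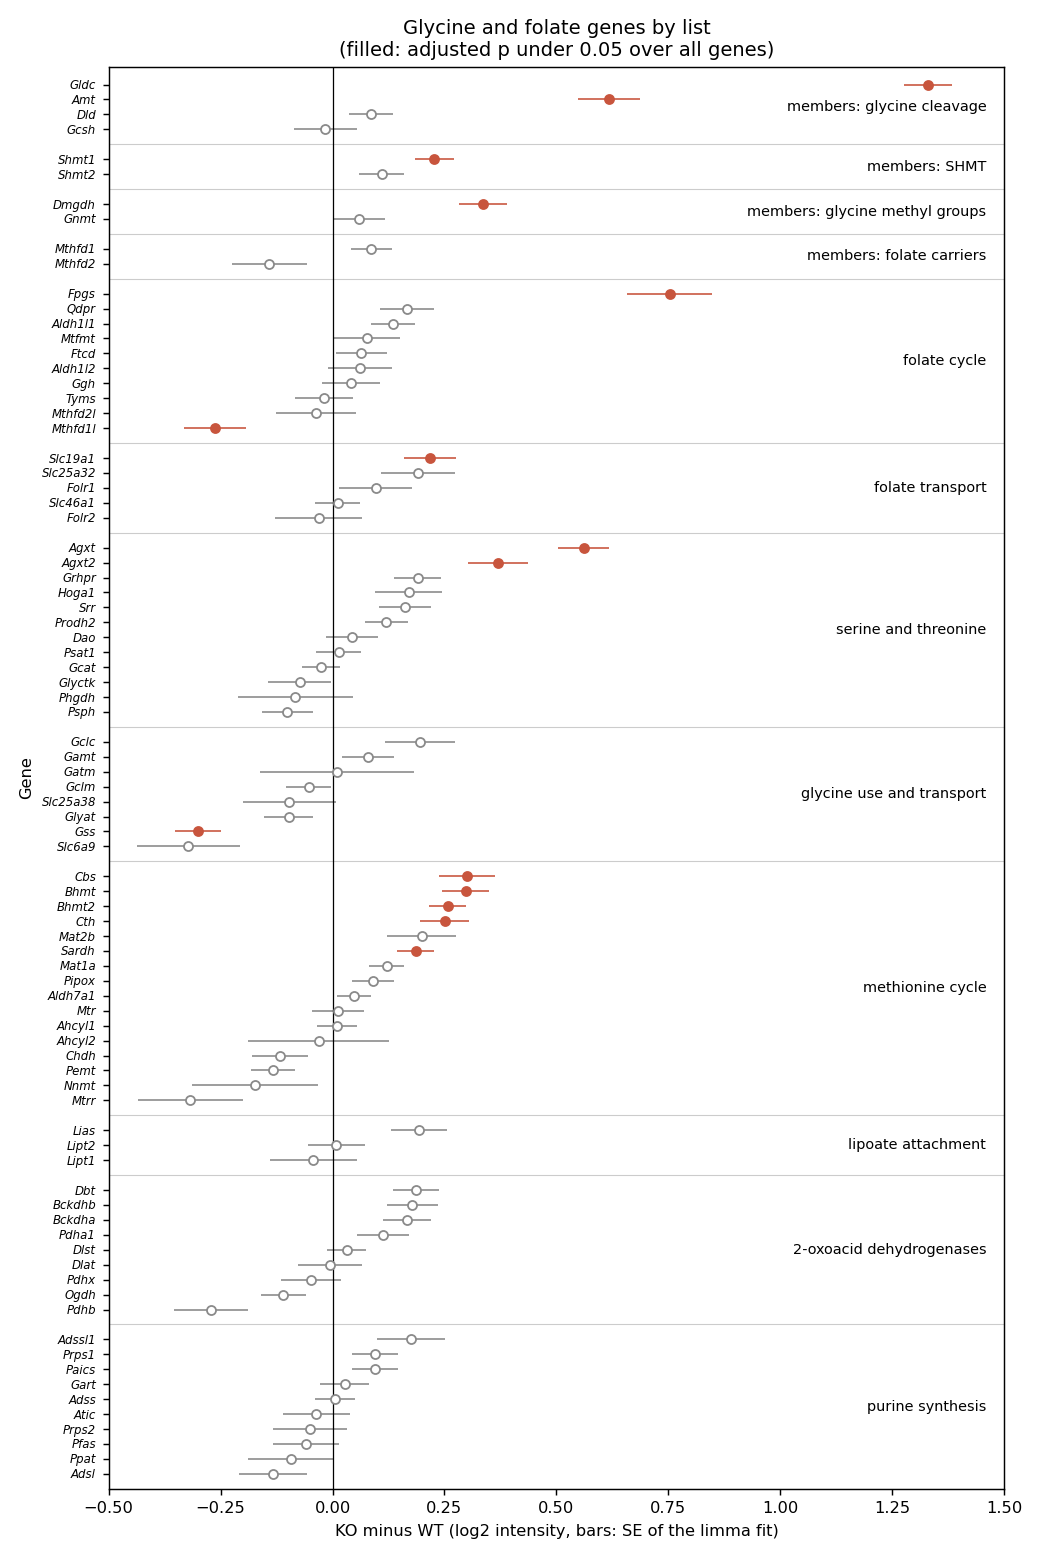
Difference KO minus WT in log2 intensity for the 10 members and 73 related genes, one gene to a line and grouped by list, with bars of 1 SE; filled red points passed an adjusted p of 0.05 over all genes and open grey points did not. Gldc at 1.33, Fpgs at 0.75, Amt at 0.62 and Agxt at 0.56 lie farthest to the right, and Mthfd1l and Gss are the filled points on the left.

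Marker lists of liver cell types and zones were read in the same arrays. Mean signal of 7 hepatocyte markers, Alb and Hnf4a among them, was 13.61 in both genotypes. Periportal genes, which mark the zone where glycine and urea metabolism are strong, differed by -0.04 as a list of 7 (exact permutation p = 0.238), with means of 12.34 to 12.42 in WT livers and 12.28 to 12.40 in KO livers. Within that list Hal, the histidine ammonia-lyase, rose by 0.42 and the cadherin Cdh1 fell by 0.44 (limma adjusted p = 0.00161 and 0.00789). The 9 pericentral genes differed by 0.05 (exact permutation p = 0.349), and of these Lect2 rose by 0.23 (limma adjusted p = 0.0154). A list that alone reached the smallest exact permutation p would have an adjusted p of 0.0714 over the 9 lists, so no list could pass on its own, and none passed. Before adjustment 2 lists had p under 0.05, and in both 1 gene made up most of the difference of the list. Cholangiocyte markers, 5 of 6 measured, had means of 6.69 to 6.82 in WT livers and 6.80 to 7.01 in KO livers, a difference of 0.12 (exact permutation p = 0.0159, adjusted p = 0.143). Among them Sox9 rose by 0.62 (limma adjusted p = 0.0129), while Krt19, Krt7 and Epcam differed by -0.02, -0.11 and -0.01 and did not pass, so that the median of the list, -0.01, was opposite in sign to its mean. Cftr read below the lower quartile. Stellate cell markers, all 8 measured, had means of 8.99 to 9.14 in WT livers and 8.94 to 9.06 in KO livers, a difference of -0.09 (exact permutation p = 0.0476, adjusted p = 0.214). Lrat, the lecithin retinol acyltransferase, differed by -0.59 (SE 0.22, limma adjusted p = 0.164) with overlapping groups, and the median of the 8 was -0.01. Hal, Cdh1, Lect2 and Sox9, the 4 called among all marker genes, and Lrat, Krt19, Krt7 and Epcam were singled out after their values were seen. Their part and that of the lists in the values of the members was not tested.

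The targeted gene gives no check of the labels here. Its only probe set read from 9.60 to 10.00 in WT and from 9.29 to 10.54 in KO, a difference of 0.14 (SE 0.18), and no source used here says whether it covers the deleted part. Arntl, a textbook target of Rev-erb alpha repression, differed by 2.13 (SE 0.14). Over all 18 alternative settings Gldc stayed between 1.31 and 1.36, Amt between 0.56 and 0.65, Dmgdh between 0.31 and 0.36 and Shmt1 between 0.20 and 0.24.

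**Figure D4:**
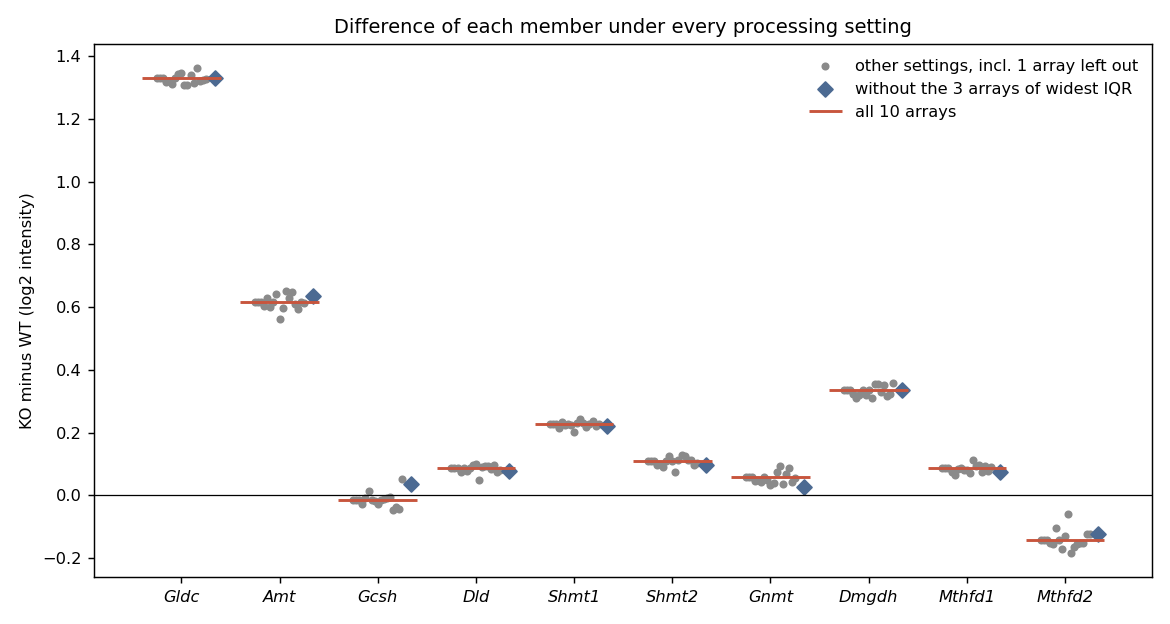
Difference KO minus WT (log2 intensity) of each member with all 10 arrays (red line), under each other processing setting including each array left out (grey points) and without the 3 arrays of widest interquartile range (blue diamonds). Only Gcsh has points on both sides of 0, from -0.045 to 0.051, and Gldc stays between 1.31 and 1.36.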

How the data were processed

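Liver RNA of 5 WT and 5 KO mice was hybridized to 1 array per mouse. The authors deposited normalized intensity values on a linear scale for 27541 probe sets; the tools listed, per the submitters' processing notes, are RMA and Partek, with no version or order. Background correction and normalization between arrays can shrink differences of dim probe sets, and no detection calls were used here. Replicates were numbered in order of deposit, and pair nothing.

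Log2 was taken, probe sets with 1 symbol in the array annotation were kept, and the probe set of highest mean stood for a gene, which left 19933 genes. KO was compared with WT with limma 3.58.1 (R 4.3.3; lmFit, eBayes, two-sided, no covariates), with Benjamini-Hochberg adjustment over all genes and a threshold of 0.05. The code was tested on simulated data. Marker list means were compared by exact two-sided permutation over 252 assignments (smallest possible p 0.00794), adjusted over 9 lists. Each limma p-value sets the difference between genotypes against the variation among mice within them. Each permutation p-value sets it against the differences under the other assignments of the same 10 mice. The number of arrays limits the precision.

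The members and lists were chosen with earlier results of these data known. Genes named beside the members are every called gene of a list with 5 or fewer, Nr1d1, Arntl and Asns, the genes most like Gldc, and those the text marks as chosen later. Of 82 related genes, 73 had a probe set with 1 symbol. Promoter sequences are from RefSeq (GRCm38.p6), found for all 10 members by symbol; protein sequences were not used here. Alternatives were other probe set rules, a filter at a mean log2 of 6, median centring, repeated quantile normalization, array weights, an intensity trend, each array left out and removal of the 3 arrays whose interquartile range was widest.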

Additional observations from a re-analysis of the deposited data

Results flagged for a closer look

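A single array stood apart from the other 4 of its group in 2 of 48 groups checked (24 genes, both genotypes), where chance alone would mark about 5% of groups. Gldc in KO replicate 2 read 11.73, below the other KO livers at 11.87 to 11.92 and still higher than all WT livers. Dld in WT replicate 3 read 10.23, below the other WT livers at 10.40 to 10.43.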

How the results depend on the processing

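Genes called numbered 1119 with all arrays, 805 to 1248 with any single array omitted, and 527 when the 3 arrays with the widest interquartile range were omitted. With each array centred on its median 930 genes were called, and the excess of higher over lower calls, 632 against 487, became 470 against 460. Of the related pathway genes 11 were called, 8 to 11 with 1 array left out and 4 without the widest 3. The 4 called members stayed at 4 with any 1 array left out and became 3 without those 3 arrays. Of the 5 genes most like Gldc, 2 to 5 stayed with 1 array left out and 2 without those 3 arrays. For the marker lists the adjusted exact permutation test is too small to show stability, and its count of 0 in each setting is not read as such. With the half-site AGGTCA, 3 members had a match, against 2 with the longer cores. Gcsh changed sign with array weights (0.015) and without those 3 arrays (0.037), and ranged from -0.045 to 0.051 with 1 array left out, positive only without KO replicate 5. Nr1d1 ranged from -0.017 to 0.295 with 1 array left out, negative only without KO replicate 3. Neither was called in any setting, and the cause was not tested. The comparison of protein sequences was not run. Without detection calls, differences of dim probe sets are the least certain. Of the members Mthfd2 read lowest, 7.25 in WT and 7.10 in KO, just under the array medians of 7.28 to 7.37. Several related genes read lower still, among them Psat1, at 6.45 in WT and 6.46 in KO. Dao was the lowest of the related genes, with means of 5.95 in WT and 5.99 in KO. These lay under the lower quartiles of the arrays, 6.00 to 6.11.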

Other observations

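The neighbours of the glycine system in mitochondria and in purine synthesis showed no called gene in limma with all arrays. Over all 19933 genes, 3461 had an unadjusted limma p under 0.05, which stands beside the counts that follow. Of 9 subunits of the other complexes that use Dld, 0 passed, with 5 at an unadjusted p under 0.05. Among these, chosen after their values were seen, the branched-chain subunits Dbt, Bckdhb and Bckdha differed by 0.19, 0.18 and 0.17, and Pdhb, of pyruvate dehydrogenase, by -0.27 (limma adjusted p from 0.0567 to 0.101). Dbt was called after repeated quantile normalization, with an intensity trend and without KO replicate 3, and Pdhb without WT replicate 3. Of 10 purine synthesis genes, which draw on glycine and formyl folates, 0 passed and 1 had an unadjusted p under 0.05, with a median difference of -0.02 and a range from -0.13 to 0.17. Of 3 lipoate genes 0 passed and 1 had an unadjusted p under 0.05: Lias, the lipoate synthase, differed by 0.19 (limma adjusted p = 0.106) with KO livers all above WT livers, and was called after repeated quantile normalization.

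Hyi, a hydroxypyruvate isomerase, was 1 of the 3 genes that deviated most opposite to Gldc within genotypes, and was singled out from these after its values were seen. In KO it rose by 0.27 (SE 0.046, limma adjusted p = 0.00474). Whether these 3 names stay with an array left out was not checked. Grhpr, which reduces glyoxylate and hydroxypyruvate and was chosen after its values were seen, differed by 0.19 (limma adjusted p = 0.0577) with all KO livers above all WT livers. Grhpr was called with an intensity trend.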
